A study of Mus musculus with 4 samples.

Results

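The AMPA receptor subunits are the 4 genes Gria1, Gria2, Gria3 and Gria4, taken from a list of C-to-U editing sites in mouse cortex by their gene symbols alone. All 4 genes were listed, with 185 of the 28412 sites and 4 of the 4206 gene symbols. The list came from scDART-seq, in which the deaminase APOBEC1 is joined to a YTH domain that binds N6-methyladenosine (m6A), so that cytosines beside m6A are edited and read as T. Dissociated cortical cells of mice aged 6 to 8 weeks at the first dose carried either APOBEC1-YTH or APOBEC1-YTHmut. All mice had received tamoxifen, 20 mg/kg at intervals of 24 h, and the cortex was collected once 7 days had passed since the final dose. Cells of both genotypes, and of replicates 1 and 2, were pooled and made into sublibraries 1 to 4, which share a single site list. Which promoter or Cre line drives the fusion was not given in the sources used here.

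No column assigns a site to a library, a genotype or a kind of cell. Each site has a whole number, called the site count below, with a lowest value of 3 and a meaning not given in the sources used here. Expression and read depth are absent from the list, so a gene or base that is not listed may be unexpressed, thinly read, unedited or removed by a filter. Every comparison below is therefore a description of a single list, without replicates or p-values. Intervals are 95% exact intervals (Clopper-Pearson for shares, Poisson for sites per kb) and cover counting error only. Of 18 markers of the main cortical cell types, chosen after the data were seen, 15 had a site. Over all annotated protein-coding genes the share with a site was 17.6%. The markers without one were Gad1 and Slc32a1 of inhibitory neurons and Tmem119 of microglia. The other inhibitory marker, Gad2, had 7 sites, while Mog of oligodendrocytes and Cx3cr1 and Csf1r of microglia had 1 each.

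AMPA receptors are tetramers of the subunits GluA1 to GluA4, encoded by Gria1 to Gria4, and carry most fast excitatory transmission in the cortex. Each subunit has an extracellular amino-terminal domain, a ligand-binding domain, membrane segments that line the pore and an intracellular tail. The RNAs are themselves much processed: a pair of alternative exons (flip and flop) changes desensitization, and A-to-I editing of Gria2 swaps a glutamine codon in the pore for arginine, which blocks calcium entry. m6A is laid down mostly on an A that follows a purine and precedes C, and mRNAs carry it chiefly near the stop codon and in the 3' UTR.

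Sequences around sites of high count show what was edited in each subunit, and they are printed first because the results turn on them. They include the highest site of every gene. The others are among the higher counts of their genes but are not a complete list in order of count. Each line gives 21 bases of the sense strand, read 5′ to 3′ from the GENCODE M21 transcripts (coordinates of mm10). The capitals mark a context of 5 bases whose base 4 is the edited C.
Gria2, count 1029, 3' UTR, chr3:80688214-80688234, minus strand: ttgacatCAACTgcatcaaga
Gria2, count 639, 3' UTR, chr3:80688080-80688100, minus strand: ttggttaAGACAaaaacaaaa
Gria2, count 529, 3' UTR, chr3:80688126-80688146, minus strand: ttttcacAGACAaactggctt
Gria2, count 420, 3' UTR, chr3:80688198-80688218, minus strand: caagatgTGACCtgttttata
Gria3, count 583, 3' UTR, chrX:41676524-41676544, plus strand: agacttgCGACAatgcaaacc
Gria3, count 91, coding exon 2, chrX:41402870-41402890, plus strand: ccaaccaGAACAccactgaga
Gria1, count 35, 3' UTR, chr11:57327713-57327733, plus strand: gtgccaaAAACAaagaaatga
Gria1, count 18, 3' UTR, chr11:57327893-57327913, plus strand: gctgcaaTAACGggagagatc
Gria4, count 9, alternative 3' UTR, chr9:4478674-4478694, minus strand: tactagaAAACAtggttttaa
All 9 have A before the edited C and A or G before that A, the pattern called RAC below (AAC or GAC). The highest site of Gria2 and that of Gria3 have C as the first of the 5 bases, which the stricter m6A consensus, called DRACH, leaves out: DRACH needs A, G or T there and A, C or T after the edited C.

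The 4 genes differed widely in the number and height of their sites. Gria2 had 95 sites, Gria3 65, Gria1 24 and Gria4 1, and all 185 lay on a C of the annotated strand. Among the 3858 protein-coding genes with a site, Gria2 ranked 9 by number of sites, Gria3 31, Gria1 231 and Gria4 2501. At least 10 sites were held by 3 of the 4 genes, against 3.13% of all annotated protein-coding genes. At least 1 site was held by all 4, where the background was 17.6%. The median protein-coding gene with a site had 2 sites.

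Per kb of exon the order changed at the top. Gria3 had 6.59 sites per kb (5.09 to 8.40), Gria2 6.11 (4.94 to 7.47), Gria1 3.97 (2.55 to 5.91) and Gria4 0.159 (0.00402 to 0.884). The intervals of Gria3, Gria2 and Gria1 overlap, and their differences were not tested, while the interval of Gria4 lies below all 3. The exon length of Gria2, 15548 nt over 8 transcripts, and that of Gria3, 9859 nt over 9, include retained introns. On the longest coding transcript alone Gria3 had 12.5 sites per kb, Gria2 8.49, Gria1 4.15 and Gria4 0. Genes with 10 or more sites and a density next to these were Kif1a, a kinesin motor, above Gria3 and Ddx5, an RNA helicase, below it. Gria2 stood between Dpysl2 and Gda, and Gria1 between Rab10 and Slc25a23. The median of all protein-coding genes with a site was 0.430 per kb.

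The site counts separated the genes further. Gria2 counts ran from 3 to 1029 with a median of 7, Gria3 counts from 3 to 583 with a median of 5, and Gria1 counts from 3 to 35 with a median of 4. The only site of Gria4 had a count of 9. By their highest count, Gria2 ranked 2, Gria3 9, Gria1 478 and Gria4 1592 of the 3858 protein-coding genes. A count of 100 or more was reached at 22 sites of Gria2, 3 of Gria3 and 0 of Gria1 and Gria4, where the background over all sites was 1.99%. Such a site was thus held by 2 of the 4 genes, against 0.615% of all annotated protein-coding genes. Together the 4 genes held 0.651% of the listed sites and 2.39% of the summed site count.

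**Figure D1:**
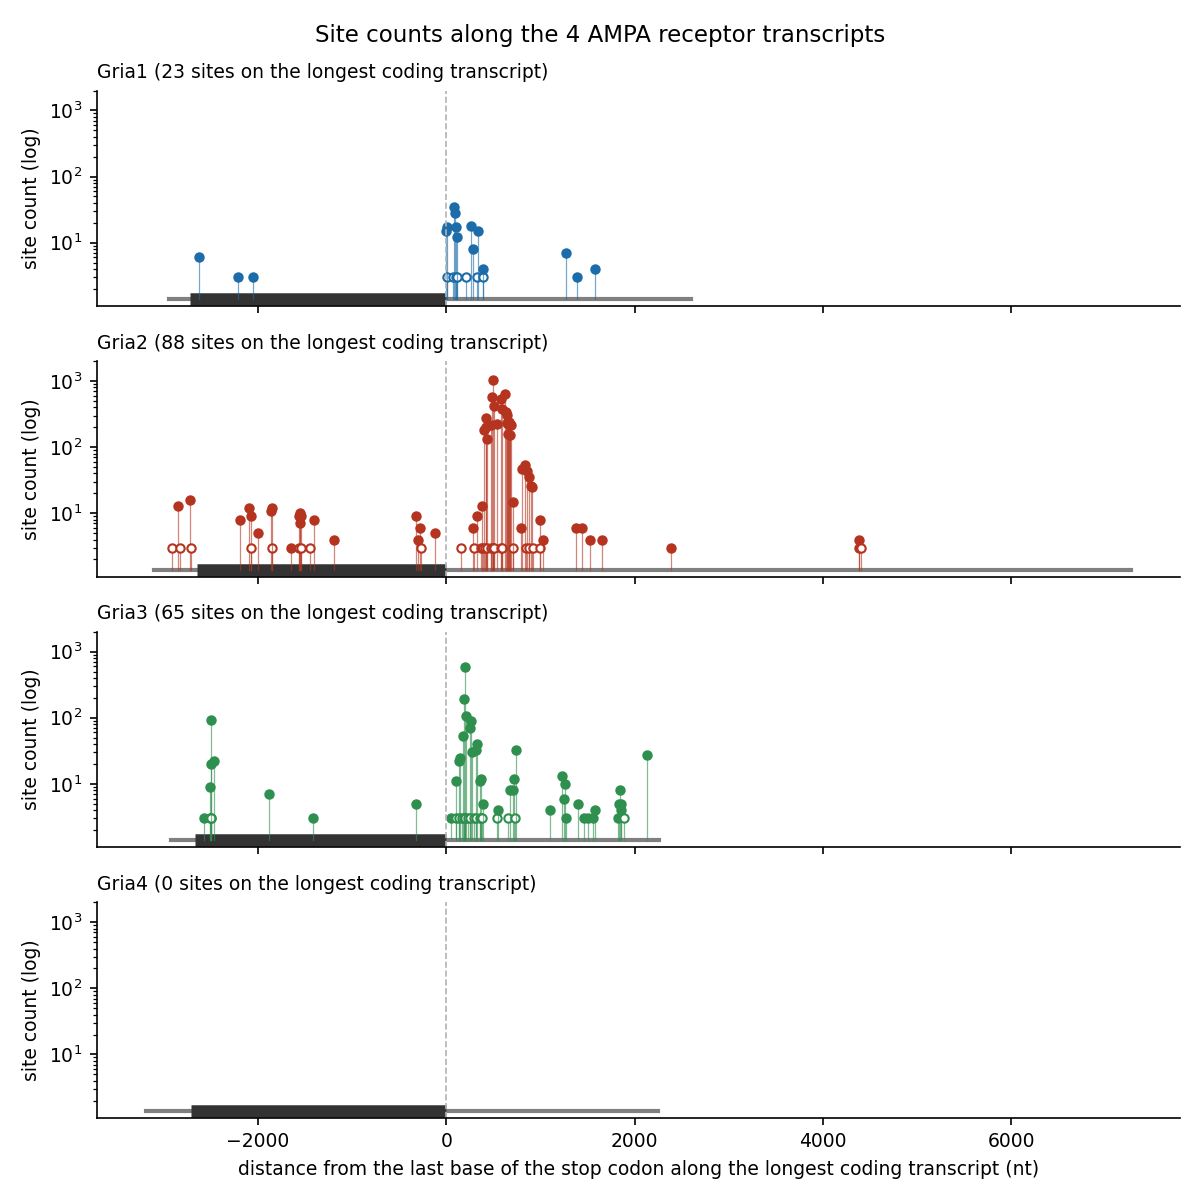
Site count (log axis) against distance from the stop codon in nt, on the longest coding transcript of each gene, with the coding sequence as a dark bar and the UTRs as a grey line. Filled points are sites in RAC and open points sites outside it. The Gria2 counts rise to 1029 at 494 nt after the stop codon, the Gria3 counts to 583 at 197 nt and the Gria1 counts to 35 at 77 nt, while Gria4 has 0 sites on this transcript.

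Most AMPA receptor sites lay in 3' UTRs. With the 3' UTR given precedence where transcripts differ, it held 141 of 185 sites, 76.2% (69.4 to 82.2), against 66.7% of all sites of protein-coding genes. The coding sequence (CDS) held 32 sites, the 5' UTR 5, and exons of noncoding transcripts 7. By gene, the 3' UTR share was 84.6% in Gria3 (55 of 65), 83.3% in Gria1 (20 of 24) and 68.4% in Gria2 (65 of 95). All 5 sites in a 5' UTR and all 7 in noncoding exons belonged to Gria2. Of the sites assigned to the 3' UTR, 5 of Gria2 and 1 of Gria3 lie in coding exons of the longest transcript and count as 3' UTR through a transcript marked for nonsense-mediated decay.

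The places of the 3' UTR sites differed between the subunits. Within 400 nt of the stop codon, on either side, lay 17 of 23 sites of Gria1, 30 of 65 of Gria3 and 12 of 88 of Gria2, where the background over all genes was 30.2%. Gria1 sites thus gathered at the start of the 3' UTR, and most Gria2 sites lay beyond that window. To allow for the bases on offer, every RAC cytosine of the transcripts was counted. In the first 400 nt of the 3' UTR, 16 of 16 RAC cytosines of Gria3 were listed, 10 of 14 of Gria1, 4 of 10 of Gria2 and 0 of 18 of Gria4. Over all protein-coding genes with a site, 4.74% of RAC cytosines in the whole 3' UTR were listed, a region wider than this window.

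Gria2, whose product sets the calcium permeability of the receptor, had its sites of high count in a single stretch. The 22 sites with a count of 100 or more all lay from 405 to 685 nt after the stop codon. Since the counts chose this window, its values are a description only. All 22 RAC cytosines in it were listed, with counts from 135 to 1029 and a median of 229.5, and its 30 sites held 91.8% of the summed count of the gene. The edges were steep. The last RAC site before it, 384 nt after the stop codon, had a count of 13, and the next RAC cytosine after it, 5 nt further on at 690 nt, was not listed. The RAC site at 708 nt had a count of 15. None of the 6 RAC cytosines in the first 200 nt of this 3' UTR was listed.

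Within this stretch, the highest counts were 1029 at 494 nt, 639 at 628 nt, 580 at 488 nt, 529 at 582 nt and 420 at 510 nt. The sites at 488 and 494 nt are neighbours, and the printed window of the latter shows both, as TGAC is followed by ATCAAC. In the stretch as a whole, 10 sites with the context AAACA had counts from 151 to 339 with a median of 224.

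Few Gria2 sites lay past an upstream annotated 3' end. A shorter annotated transcript ends 923 nt after the stop codon, while Gria2-201 runs on to 7268 nt. Up to 923 nt, 34 of 41 RAC cytosines were listed, with counts up to 1029. From 924 nt to the end, 9 of 139 were listed, 6.47%, with counts from 3 to 8. No site was listed from 2391 to 4382 nt, which holds 53 RAC cytosines, or after 4406 nt, where 57 lie. Reads per transcript are not in the list, so the part of 3' end use in this difference was not tested.

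Gria3, the X-linked subunit gene, had its peak nearer to the stop codon. Its RAC sites at 190, 197 and 206 nt had counts of 192, 583 and 108, the only ones of the gene that reached 100. These 3 and 2 sites outside RAC between them held 53.0% of the summed count of the gene. The counts fell off on both sides, to 53 at 180 nt and 25 at 147 nt before them, and to 88 at 258 nt and 40 at 321 nt after them. Beyond 400 nt, 21 of 55 RAC cytosines were listed, with counts from 3 to 33 and a median of 5. The last site, 2132 nt after the stop codon and 132 nt from the annotated 3' end, had a count of 27.

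Gria1, whose product is inserted into synapses in long-term potentiation, had lower counts than Gria2 and Gria3. Its first 3' UTR site was the base after the stop codon, with a count of 15, and in its window the first 3 capitals, TAA, are the stop codon itself.
Gria1, count 15, 1 nt after the stop codon, chr11:57327637-57327657, plus strand: aggattgTAACTggagcagac
Counts of 35 and 28 followed at 77 and 90 nt, 17 at 102 nt, 18 at 257 nt and 15 at 331 nt. After 393 nt a stretch of 880 nt with 16 RAC cytosines held no site. Beyond 400 nt only 3 of 61 RAC cytosines were listed, with counts of 7, 3 and 4. Gria4, known from fast-spiking interneurons and the developing brain, had 0 of 66 RAC cytosines of its longest 3' UTR listed (18 within 400 nt and 48 beyond).

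**Figure D2:**
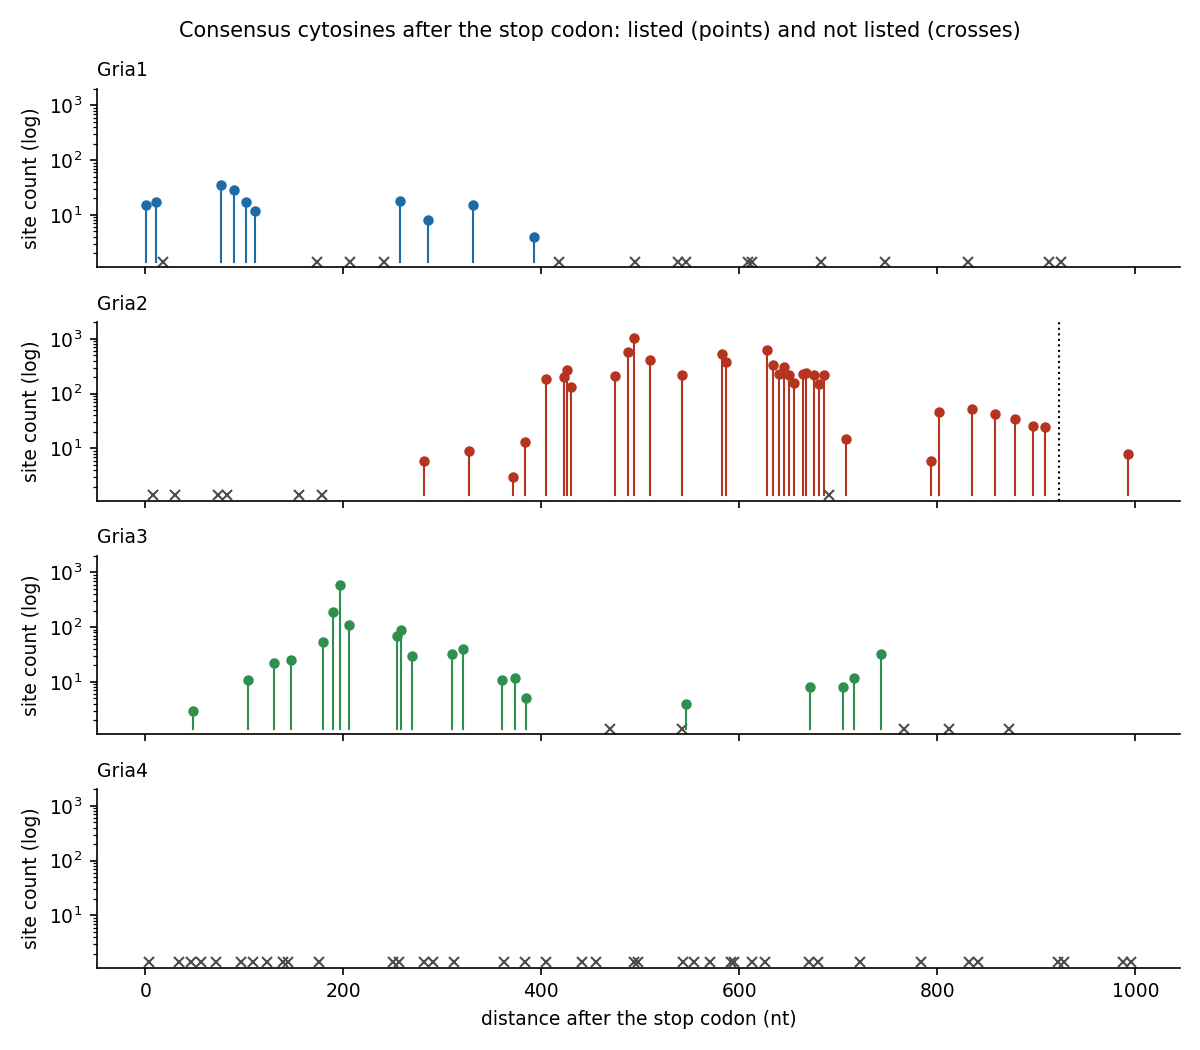
Site count (log axis) against distance after the stop codon, up to 1000 nt, for RAC (consensus) cytosines only: points are listed sites, crosses RAC cytosines that were not listed, and the dotted line the 3' end of the shorter Gria2 transcript. All 22 RAC cytosines of Gria2 from 405 to 685 nt are listed at 135 or more, and all 16 of Gria3 in the first 400 nt are listed, while Gria4 shows crosses only.

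Over whole gene models, of 1032 RAC cytosines in the 4 genes, 130 were listed, 12.6%, where protein-coding genes with a site had 2.77%. The share was 17.1% in Gria2, 16.7% in Gria3, 9.24% in Gria1 and 0.535% in Gria4. In the 3' UTR it was 45.2% in Gria3 (38 of 84), 23.9% in Gria2 (47 of 197) and 17.3% in Gria1 (13 of 75), with a background of 4.74%. In the CDS it was 20.3% in Gria2 (13 of 64), 9.46% in Gria3 (7 of 74), 4.12% in Gria1 (4 of 97) and 0 of 92 in Gria4, with a background of 2.34%. In the 5' UTR, 2 of 13 were listed in Gria2, with counts of 13 and 16, and 0 of 11, 0 of 7 and 0 of 16 in Gria1, Gria3 and Gria4, with a background of 1.09%. Expression is not in the list, and its part in these shares was not tested.

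**Figure D3:**
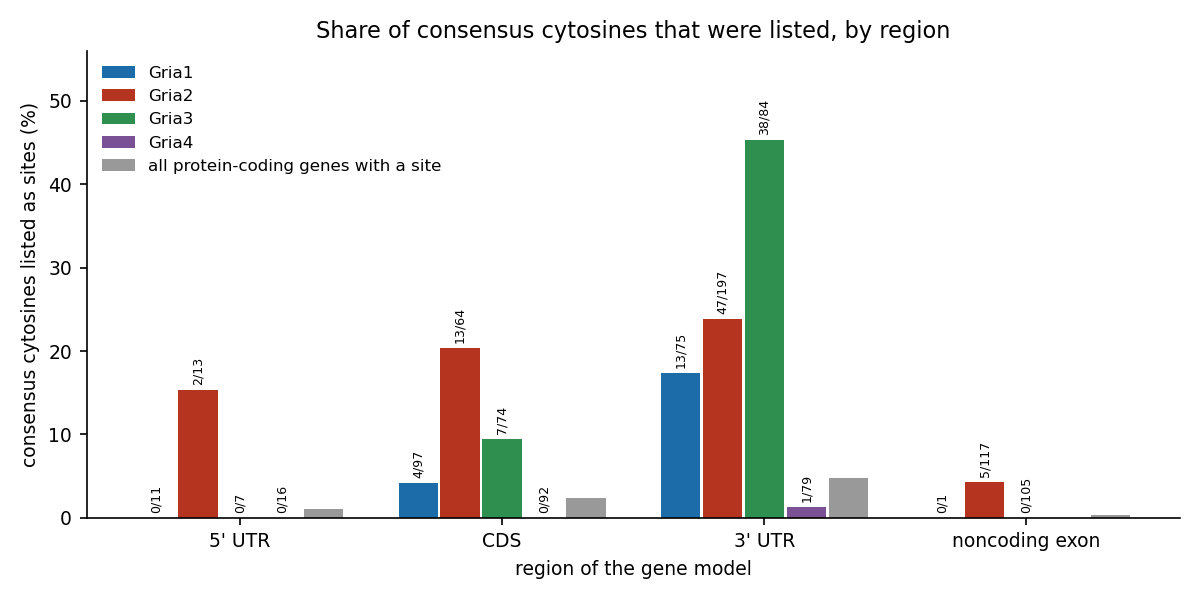
Percent of RAC cytosines (consensus cytosines on the axis) listed as sites, by region and gene, with the numbers listed and on offer above each bar and all protein-coding genes with a site in grey. Gria3 has the highest bar, 45.2% in the 3' UTR, and Gria2 the highest in the CDS, 20.3%, while Gria4 has 1 of 79 in the 3' UTR.

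The coding sequences carried lower counts, with a single exception. On the longest coding transcripts Gria2 had 23 CDS sites with counts from 3 to 12, Gria1 3 with counts from 3 to 6, and Gria3 11 with counts from 3 to 91. The exception was exon 2 of Gria3, which encodes part of the amino-terminal domain. In its 159 nt, 5 of 8 RAC cytosines were listed, with counts of 3, 9, 20, 91 and 22, and 3 more sites outside RAC had a count of 3. In Gria2, 10 of the 15 exons before the last held a site, in Gria3 4 of 15, in Gria1 3 of 15 and in Gria4 0 of 16. The 10 of Gria2 include exon 1, whose 5 sites all lay in the 5' UTR. Among these exons of Gria2, exon 8 held the most sites, 6, with 4 of 7 RAC cytosines listed, at counts of 9, 10, 7 and 9. In Gria2 the RAC share was 43 of 180 (23.9%) in the last exon as a whole and 19 of 88 (21.6%) in the others. In Gria3 it was 37 of 71 (52.1%) against 8 of 83 (9.64%), and in Gria1 13 of 79 (16.5%) against 3 of 92 (3.26%). The Gria2 share of the last exon averages 2 unlike parts. Up to 923 nt after the stop codon 34 of 41 (82.9%) were listed, and beyond that 9 of 139 (6.47%). In the CDS of the longest Gria2 transcript alone, 17 of 75 (22.7%) were listed.

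Listed and unlisted coding bases lay at like distances from exon boundaries. The 28 listed RAC cytosines in the CDS lay a median of 45.5 nt from the nearest exon junction, and the 303 that were not listed 46 nt. Within 50 nt of a junction lay 57.1% of the listed and 56.4% of the others.

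The sites were next set against the known processing of these RNAs. In Gria2 the A edited by A-to-I deamination in the glutamine/arginine codon, CAG in the genome, is at position 80706912 of chromosome 3, in exon 11. That exon held 0 sites, and the nearest one on the genome, with a count of 3, was 476 nt away in the intron before it. On the spliced longest coding transcript the nearest was the exon 10 site, with a count of 4. The A of the arginine/glycine codon is at 80692286 in exon 13, which ends at 80692285 and held 0 sites too. On the genome its nearest site was 889 nt away, across an intron. That site, with a count of 9, lies in exon 14, 37 nt from the nearest exon junction, so it is close to the codon in spliced RNA. The intron between exons 10 and 11, 440 nt long, held 6 sites, 4 of them in RAC. The annotated transcript Gria2-204 retains this intron, but its reads cannot be told apart from unspliced RNA in the list. One of the sites in this intron, at position 80707575, had a count of 72, the highest of Gria2 outside the 3' UTR.
Gria2, count 72, retained intron before exon 11, chr3:80707565-80707585, minus strand: aaaaacaAAACTttttaaagg
The next intron, of 4231 nt, held 1 site with a count of 5. Sites in introns were otherwise seen only in Gria1, at an alternative exon, and in Gria4.

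The only site of Gria4, at position 4478684 of chromosome 9, lay in none of its full-length transcripts. It falls in the intron after exon 10 of the longest one, 1494 nt past that exon, and in the last exon of Gria4-203. That short transcript ends there with a 3' UTR of its own and encodes a truncated protein. Reads of this transcript cannot be told apart from unspliced RNA in the list.

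The alternative exons of equal length, the flip/flop pair, held 6 sites in 3 genes. Gria2 had 4 in the upstream exon of the pair, with counts of 9, 4, 6 and 3, and 0 in the downstream exon. Gria1 had 1 in the upstream exon, with a count of 3, and 0 downstream. Gria3 had 0 upstream and 1 downstream, with a count of 5, and Gria4 had 0 in both. Each of these exons holds from 4 to 7 RAC cytosines.

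The subunits are close relatives, so sites could fall at matching places. The proteins translated from the longest coding transcripts were 67.7% to 73.1% identical in pairs over their aligned residues. The 38 CDS sites fell in 35 of the 925 columns of the alignment of all 4, and 2 columns were shared by sites of 2 genes. Both shared columns lay in the flip/flop pair. Their windows are set out in pairs.
Gria2, count 9, chr3:80691387-80691407, minus strand: actgaatGAACAaggcctgtt
Gria3, count 5, chrX:41669528-41669548, plus strand: actcagtGAACAaggcatctt
Gria1, count 3, chr11:57309837-57309857, plus strand: ggtggtaCGACAagggcgagt
Gria2, count 6, chr3:80691346-80691366, minus strand: ggtggtaCGACAaaggagagt
In each pair the 5 bases of the context are the same and the edited C is at the same codon position. The first pair joins the upstream exon of Gria2 to the downstream exon of Gria3, and the second joins the upstream exons of Gria1 and Gria2. With sites of a count of 4 or more alone, only the first remained. On the longest coding transcripts, 16 of the 28 listed RAC cytosines of the CDS (57.1%) had a RAC cytosine at the aligned base of another subunit, against 195 of the 303 that were not listed (64.4%). The C was the last base of its codon in 20 of the 28 listed (71.4%) and in 150 of the 303 others (49.5%), a difference that was not tested.

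**Figure D4:**
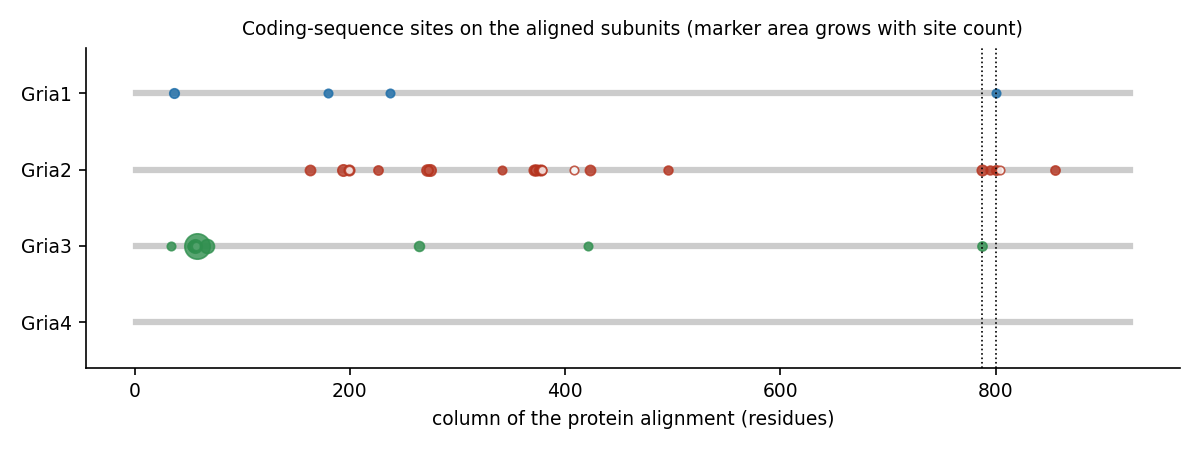
CDS sites of the 4 genes by column of the protein alignment (x axis, residues), with marker area growing with site count, filled markers for RAC sites and open ones for others. The dotted lines mark the 2 columns shared by sites of 2 genes, and the largest marker is the Gria3 site with a count of 91.

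RAC held 130 of the 185 sites, 70.3% (63.1 to 76.8), against 77.8% of all sites with a context, which lies above the interval. By gene the share was 70.8% in Gria1, 70.5% in Gria2 and 69.2% in Gria3. DRACH held 98 of those 130, 75.4% (67.1 to 82.5), against 71%. A count of 4 or more was carried by 113 of 185 sites, 61.1% (53.7 to 68.2), against 59%. All 55 sites outside RAC had a count of 3, as did all 5683 such sites of protein-coding genes, so this is a property of the whole list. They stood close to other sites: 39 of the 55 lay within 10 nt of a RAC site of the same gene, at a median of 5 nt, where all genes had 69.3% and a median of 6 nt. The window printed first for Gria2 shows such a pair, since the C 3 bases after the site of count 1029 was listed with a count of 3.

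Among RAC cytosines, AAACA was listed in 20 of 97 cases in the 4 genes, 20.6%, and GGAC followed by any base in 4 of 109, 3.67%. Over all protein-coding genes with a site these shares were 5.52% and 1.36%. By gene, AAACA was listed in 14 of 41 cases in Gria2, 2 of 6 in Gria1, 3 of 27 in Gria3 and 1 of 23 in Gria4. GGAC was listed in 2 of 34 cases in Gria2, 0 of 32 in Gria1, 2 of 18 in Gria3 and 0 of 25 in Gria4. Gria2 thus held 14 of the 20 listed AAACA cases, and in Gria3 both contexts were listed in 11.1% of cases.

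Partner genes of the receptor were examined in lists drawn up with earlier results of these data known. Of 19 auxiliary subunits and assembly factors, 10 had a site (background 17.6%), and 3 had 10 or more (background 3.13%). Olfm1, a secreted protein of the receptor complex, had 58 sites with a highest count of 125. Frrs1l, which acts in receptor assembly, had 54 with up to 150, and Cacng2 (stargazin), the founding transmembrane regulator, 18 with up to 25. Cnih3, a cornichon, had 7. The genes without a site were Cacng5, Cacng7, Cacng8, Cnih2, Gsg1l, Shisa6, Shisa8, Syndig1 and Prrt1.

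Of 17 scaffold, traffic and clustering genes, 11 had a site (background 17.6%) and 6 had 10 or more (background 3.13%). Nptxr, the neuronal pentraxin receptor, had 65 sites with a highest count of 66. Of its 81 RAC cytosines in the 3' UTR, 44 were listed (background 4.74%). Epb41l1, a cytoskeletal partner of GluA1, had 30 sites with up to 90, Nsf, an ATPase that binds GluA2, 22 with up to 48, and Dlg4 (PSD-95) 20 with up to 23. Grip1, Grip2, Pick1, Nptx2, Porcn and Iqsec2 had none. None of the 36 genes of both lists reached the highest counts of Gria2 or Gria3. In sites per kb of exon, however, Olfm1 (16.3), Nptxr (12.6) and Frrs1l (7.92) stood above Gria3 (6.59) and Gria2 (6.11). Of the RAC cytosines in the 3' UTR of Olfm1, 27 of 38 were listed (background 4.74%).

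The other ionotropic glutamate receptor genes were counted in the same way, and none had more sites per kb than Gria1, Gria2 or Gria3, although Grin2b lay within the interval of Gria1. Of 7 NMDA receptor genes 4 had a site (background 17.6%), 147 in all. Grin2b led with 97, or 3.90 per kb and a highest count of 133, followed by Grin2a with 26 (1.45 per kb, 80), Grin1 with 22 (2.27 per kb, 59) and Grin2c with 2. Grin2d, Grin3a and Grin3b had 0. Grin2b thus had about as many sites as Gria2 on 24842 nt of exon, while its counts of 100 or more were at 3 sites against 22. Of 6 kainate and delta receptor genes examined 3 had a site (background 17.6%), with 9 in all: Grik5 had 5, Grik4 and Grid1 2 each, and Grik1, Grik2 and Grik3 0. These differences were not tested, since the list has no replicates.

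**Figure D5:**
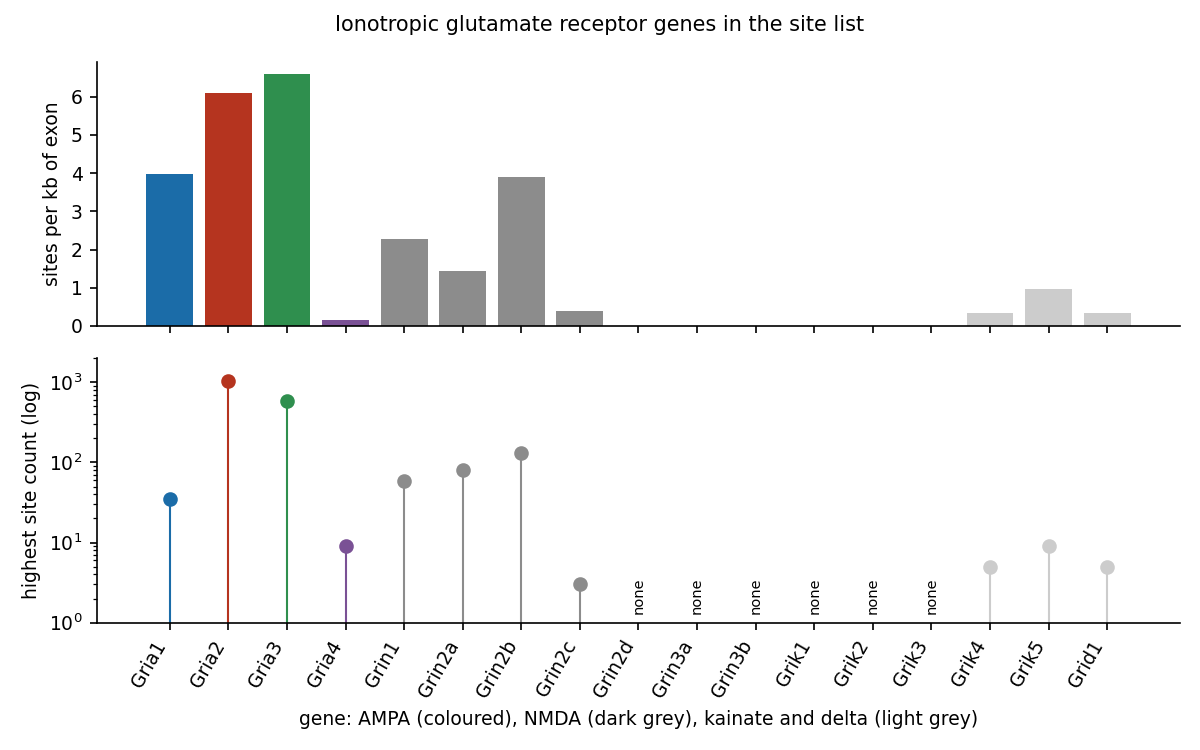
Sites per kb of exon (upper bars) and highest site count (lower points, log axis) of the AMPA (coloured), NMDA (dark grey) and kainate and delta (light grey) receptor genes. Gria3 with 6.59 and Gria2 with 6.11 per kb have the highest bars and, with 583 and 1029, the highest counts, and genes with 0 sites are marked "none".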

How the data were processed

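The submitters' processing notes name STAR 2.7.5 and mm10, and the series text names the Bullseye pipeline for the sites. The authors deposited 1 list of sites for the series with a whole number per site, used as an unnormalized count. Filters, and how the mutant fusion served as background, were not given in the sources used here, and sequencing depth is unknown.

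Sites were placed on GENCODE M21 (coordinates of mm10) by symbol and strand (27873 sites) or position (496), and 43 had no gene. Of 28338 exonic sites, 28337 lay on a C. Where transcripts differ, the order was 3' UTR, CDS, 5' UTR, noncoding exon, and the stop codon counted as CDS. Sequences were read from the transcripts, so no intron outside an annotated transcript was read. Every RAC cytosine was enumerated, and proteins were aligned with MAFFT 7.526. A CDS site off the longest transcript was placed by residue number on a transcript with a CDS of equal length. Scripts ran in Python 3.11.15 with SciPy 1.17.1. Of simulated sites on longest coding transcripts, 3966 of 3966 were given the right region and context on that transcript. The right answer was read from the same gene models, and the order of regions between transcripts was not checked.

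The members, a gene family selected by symbol, and the lists were proposed with earlier results of these data known. Named beside the members were up to 4 genes of each list with the most sites, genes with none, and neighbours in the order of sites per kb. Alternatives were a minimum count of 4, merging within 10 nt, RAC sites only, and other transcript rules. The cortical markers were chosen after the data were seen. No comparison between groups or cell types could be made. Some listed items are not reported here.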

Additional observations from a re-analysis of the deposited data

How the results depend on the processing

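Of 72 alternative values, 45 stayed within their limits, which were 1.5 times for counts and the 95% interval for shares and densities. The total of 185 sites fell to 113 with a count of 4 or more and to 110 with sites within 10 nt merged. Sites per kb over the 4 genes, 4.90 with all sites, were 2.99 with a count of 4 or more, 2.91 after merging and 6.63 on the longest coding transcripts. The share of RAC cytosines listed fell from 12.6% to 9.11% after merging. The share of sites with a count of 4 or more rose to 70.9% after merging and to 86.9% in RAC only. The latter, against 75.4% for all protein-coding genes, follows from all 55 sites outside RAC having a count of 3, and the cause of the rise after merging was not tested. Aligned residues shared by paralogs fell from 2 to 1 with a count of 4 or more. Auxiliary and scaffold genes with a site, 21 of 36, fell to 9 with a minimum of 10 sites. The 3' UTR share stayed within its interval under every alternative run for it. Of the 51 alternative values of single genes, 17 moved, those being numbers of sites and sites per kb of Gria1, Gria2 and Gria3, shares of RAC cytosines of Gria2 and Gria3, and sites per kb of Gria4. No paired analysis was possible because sites carry neither a replicate nor a genotype. Depth is not in the list, so a base that is not listed is not shown to be unedited.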

Other observations

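Genes that edit or splice AMPA receptor RNA were a further list, drawn up with earlier results of these data known. Of 7 genes, 4 had a site, where the background over annotated protein-coding genes was 17.6%. Rbfox1, a splicing regulator of neurons, had 38 sites, 35 of them in the 3' UTR, with a highest count of 64, and 27 of its 50 RAC cytosines in the 3' UTR were listed (background 4.74%). Nova2, another neuronal splicing factor, had 4 sites with a highest count of 57. Khdrbs3 had 1 site with a count of 4. Adarb1, the deaminase that edits the glutamine/arginine codon of Gria2, had 1 site with a count of 3. Adar, Adarb2 and Khdrbs2 had 0.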
